A study of Homo sapiens with 2 samples.

Results

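Forkhead (FOX) genes encode transcription factors that share a winged-helix DNA-binding domain, and the S9.6 peaks on and beside these genes are described here for A549, an established human lung cancer cell line. The genes were chosen by symbol: every protein-coding gene on chromosomes 1 to 22 and X whose symbol was FOX, a letter from A to S and a digit. This gave 52 of 19974 protein-coding genes. One of the 52, FOXL2NB, is named as the neighbour of FOXL2 and encodes no forkhead protein, which leaves 51 forkhead genes by name. The study made 2 CUT&Tag libraries from unperturbed wild-type A549 cells. The antibody was S9.6, raised against hybrids of RNA with DNA, in one and non-specific IgG in the other. In CUT&Tag the bound antibody directs a transposase that tags nearby DNA. For S9.6 the authors listed 47810 peaks, of which 45756 lay on the chromosomes used. The library made with IgG was not analysed here. With a single S9.6 library there was no replicate, so no difference was tested, and every value below describes this peak list.

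R-loops, in which RNA pairs with the template strand and leaves the other DNA strand single, form where RNA polymerase transcribes GC-rich, G-skewed DNA, often near promoters. Most forkhead factors bind DNA as monomers, and several act as pioneer factors that open compacted chromatin. In the lung, FOXA1 and FOXA2 act in the airway and alveolar epithelium, FOXJ1 drives motile cilia, and FOXF1 acts in mesenchyme and vessels. Many forkhead genes are short genes of embryonic patterning that adult epithelium keeps silent.

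A peak was called a boundary peak where at least 1 base lay within 1000 bp of either end of the gene span, and an inside peak where it lay over the span farther from both ends. Each peak has a maximum coverage, the highest coverage over 1 base and a whole number in every peak, and a total signal, the coverage summed over its width, both as the authors' peak caller wrote them. Boundary peaks were found at 16 of 52 forkhead genes (30.8%, 95% Wilson interval 19.9 to 44.3), against 40.1% of all protein-coding genes. Inside peaks alone were found at 10 more, so 26 of 52 (50%) had any peak, against 60.4%. The other 26 had none. With peaks of maximum 3 or more, 10 of 52 had one at a boundary (19.2%, against 32.2% of all protein-coding genes) and 20 of 52 had one anywhere (38.5%, against 44.6%). With peaks of maximum 5 or more the counts were 4 of 52 at a boundary (7.69%, against 14.5%) and 8 of 52 anywhere (15.4%, against 17.8%). The 3 genes with the highest boundary peaks were FOXA2 and FOXN2, at a maximum of 8, and FOXA3, at 7. Among the 16 genes with a boundary peak the median of the highest maximum was 3, and among all protein-coding genes with one it was 4.

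The forkhead peaks were shallow, as was the whole list. Of the 78 peaks over these genes and their flanks, 42 (53.8%) had a maximum of 2 or less, and 43 (55.1%) had a total signal under 1000. For all 45756 peaks these shares were 54.6% and 51.7%, and the lowest total in the list was 745. A gene without a peak may therefore still have carried signal below the authors' threshold. A maximum of 5 or more was reached by 8 of the 78 forkhead peaks (10.3%) and by 9.54% of all peaks. No expression was measured in this series, and which forkhead genes A549 cells transcribe is not given in the sources used here.

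**Figure D1:**
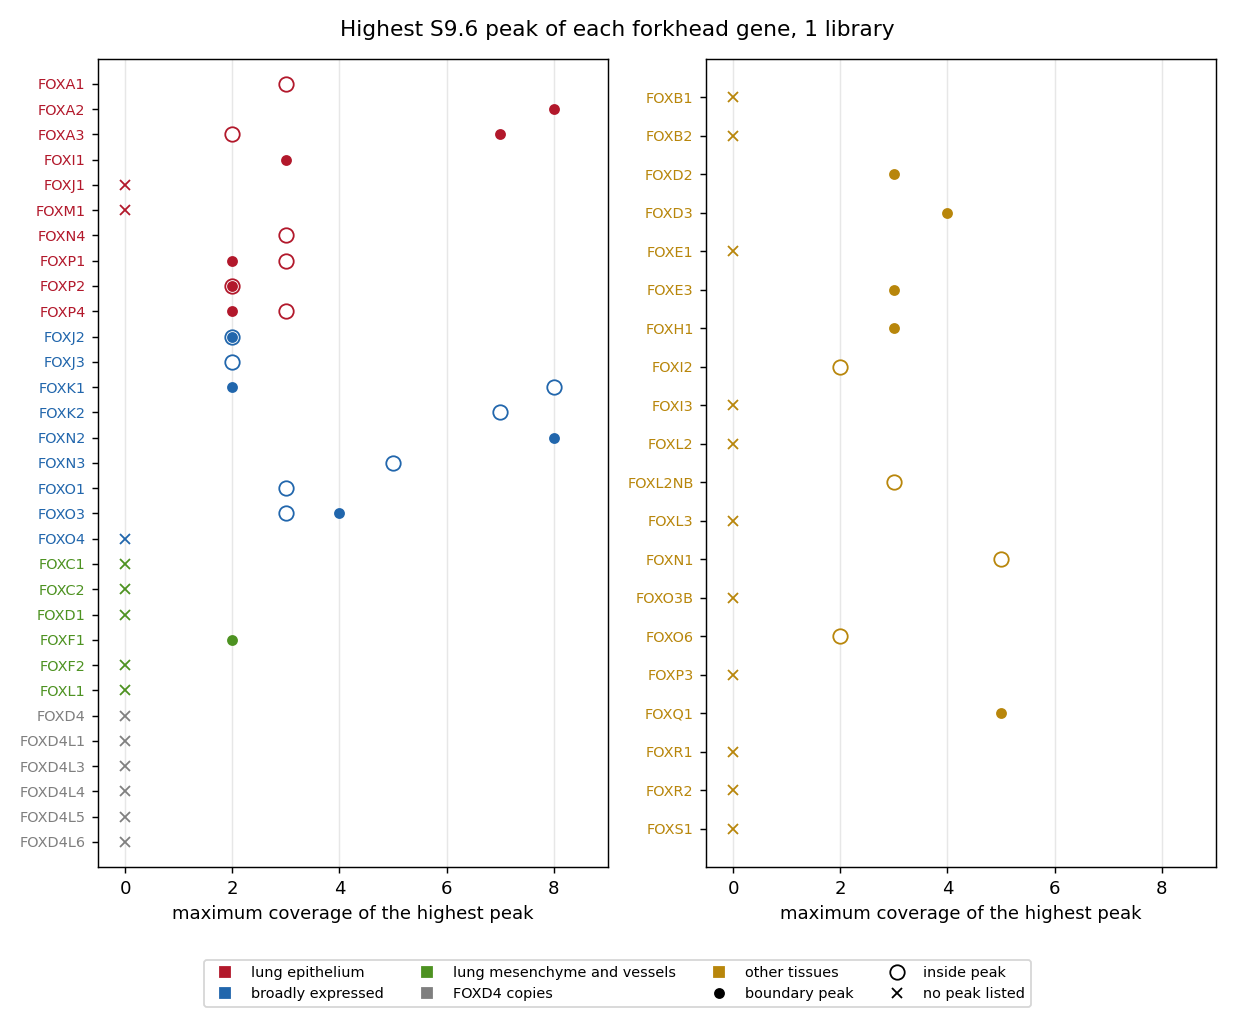
Each row is 1 gene, 51 of the 52 chosen by symbol, and the x axis is the maximum coverage of its highest boundary peak (filled points) and of its highest inside peak (open circles) in the single S9.6 library. Crosses mark genes with no peak listed, with colours for the gene groups. FOXA2, FOXN2 and FOXK1 reached 8, while 26 genes had no peak.

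The counts differed with gene length. The median span was 4.90 kb for the forkhead genes and 24.2 kb for all protein-coding genes, and 28 of 52 (53.8%) were under 5 kb against 15.8% of all. Among those 28, 9 had any peak (32.1%), against 36.9% of all protein-coding genes of that length, and 8 a boundary peak (28.6%, against 35.5%). Among the 10 of 5 to 20 kb, 3 had any peak, against 55.1%, and 1 a boundary peak, against 43.3%. Each of the 8 genes of 20 to 100 kb and the 6 of 100 kb or more had at least 1 peak, against 65.9% and 79.2% of all genes in those classes. Boundary peaks were found at 4 of the 8 (against 42.5%) and 3 of the 6 (against 33.2%). The forkhead family thus held peaks at every gene of 20 kb or more and at a minority of its shorter ones.

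Starts of transcription and their promoter sequences were taken from RefSeq (GRCh38.p14) and were listed for 41 of the 52 genes. Those without a listed start included FOXA2, FOXC2, FOXE3, FOXF1, FOXH1, FOXJ1, FOXL1, FOXM1, FOXN2 and FOXS1. Among them, FOXA2 and FOXN2, each with a boundary maximum of 8, and FOXE3, FOXF1 and FOXH1 had boundary peaks. The start counts below leave these peaks out. Where a gene had several starts, the one farthest upstream was used. For FOXP2 the listed start lay deep inside the span, and its boundary peak, with its summit at −329 kb from that start, was not counted. A peak lay within 1000 bp of the start at 9 of 41 genes (22%), against 36.4% of all protein-coding genes with a listed start. With a maximum of 3 or more it was 6 of 41, against 30.3%. These were FOXA3 (maximum 7), FOXQ1 (5), FOXD3 and FOXO3 (4 each), FOXD2 and FOXI1 (3 each), and FOXJ2, FOXP1 and FOXP4 (2 each).

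Promoter sequences of 4 genes with a start peak are printed first, FOXA3, FOXQ1 and FOXO3 for their high start peaks and FOXP4 for the lowest GC skew of the 41 promoters. Each runs 5′ to 3′ on the gene's own strand and ends at the base before the start, and capitals mark runs of 3 or more G, a feature of R-loop-forming DNA. They lie at chr6:1311848-1312097 (plus strand) for FOXQ1, chr6:108559575-108559824 (plus) for FOXO3, chr19:45864076-45864325 (plus) for FOXA3 and chr6:41546131-41546380 (plus) for FOXP4. The start peaks of FOXQ1 and FOXO3 overlap the printed stretch. Those of FOXA3 (chr19:45862336-45863425) and FOXP4 (chr6:41547133-41547663) lie outside it, so their G runs are not sequence under a peak.
FOXQ1: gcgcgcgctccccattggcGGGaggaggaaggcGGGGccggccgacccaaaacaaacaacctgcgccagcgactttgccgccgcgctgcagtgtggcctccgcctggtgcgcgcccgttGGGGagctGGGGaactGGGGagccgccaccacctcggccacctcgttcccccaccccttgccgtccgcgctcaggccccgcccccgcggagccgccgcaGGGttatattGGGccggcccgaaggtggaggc
FOXO3: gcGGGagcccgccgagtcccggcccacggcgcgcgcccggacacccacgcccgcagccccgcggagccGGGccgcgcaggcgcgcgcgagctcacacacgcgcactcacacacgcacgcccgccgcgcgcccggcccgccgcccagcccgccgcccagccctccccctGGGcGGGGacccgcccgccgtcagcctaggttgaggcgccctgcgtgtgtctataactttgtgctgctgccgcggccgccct
FOXA3: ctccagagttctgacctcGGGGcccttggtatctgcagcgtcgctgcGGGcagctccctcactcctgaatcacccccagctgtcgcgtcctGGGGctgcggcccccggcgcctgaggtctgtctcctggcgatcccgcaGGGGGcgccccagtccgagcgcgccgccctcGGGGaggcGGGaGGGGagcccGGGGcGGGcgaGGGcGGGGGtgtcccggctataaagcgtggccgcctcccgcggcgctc
FOXP4: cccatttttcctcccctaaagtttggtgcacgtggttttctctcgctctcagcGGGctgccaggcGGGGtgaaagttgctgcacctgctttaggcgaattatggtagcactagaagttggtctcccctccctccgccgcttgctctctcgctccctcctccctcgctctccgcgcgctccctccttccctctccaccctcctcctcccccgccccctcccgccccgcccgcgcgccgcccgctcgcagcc
The next pair had no peak within 1000 bp of the start, and it is shown because its GC content lies within the range of the 4 above and both promoters hold many more G runs than FOXO3 or FOXP4. FOXA1 lies at chr14:37595250-37595499 (minus strand) and FOXF2 at chr6:1389326-1389575 (plus).
FOXA1: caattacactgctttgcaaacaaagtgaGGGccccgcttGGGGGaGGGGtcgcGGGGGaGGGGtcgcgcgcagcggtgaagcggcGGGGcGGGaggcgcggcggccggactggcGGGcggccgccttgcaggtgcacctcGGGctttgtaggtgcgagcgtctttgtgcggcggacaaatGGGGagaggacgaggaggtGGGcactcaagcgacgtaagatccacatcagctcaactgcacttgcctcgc
FOXF2: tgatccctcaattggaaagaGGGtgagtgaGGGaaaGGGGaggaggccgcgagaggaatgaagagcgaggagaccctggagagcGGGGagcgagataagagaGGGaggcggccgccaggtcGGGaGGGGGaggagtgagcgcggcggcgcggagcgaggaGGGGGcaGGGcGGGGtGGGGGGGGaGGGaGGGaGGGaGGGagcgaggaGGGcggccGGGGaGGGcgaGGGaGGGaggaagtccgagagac
Over the 250 bases shown, FOXF2 held 20 G runs, FOXA1 and FOXA3 11 each, FOXQ1 7, FOXO3 4 and FOXP4 2. These 6 were picked by peak and composition and do not stand for the family. Over the 300-base windows of all 41, the median number of G runs was 10 with a start peak and 7 without, and over all protein-coding promoters it was 8 and 6.

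Composition was computed over 300 bases, from 250 before the start to 50 after it. The start peaks of FOXA3, FOXI1 and FOXP4 lay outside this window. Forkhead promoters were GC-rich, with a median of 67.7% G + C against 62.7% over all 15812 protein-coding promoters. The 9 with a start peak ranged from 66.3% to 80.3%, with a median of 75%, and the 32 without one ranged from 35% to 84.3%, with a median of 62.7%. Over all promoters the medians were 66% with a start peak and 59.7% without. None of the 6 forkhead promoters under 50% G + C had a start peak (against 8.99% of all promoters in that range), nor did any of the 8 from 50% to 60% (against 30.9%). Among the 6 was FOXP2, whose listed start lay deep inside its span. From 60% to 70%, 3 of 12 had a start peak (against 47.3%), and from 70% up 6 of 15 (against 45.9%). Of the 27 at 60% or more, 9 had one (33.3%), against 46.7% of all promoters in that range. CpG sites were dense too: of 30 forkhead promoters with an observed-to-expected CpG ratio of at least 0.6, 8 had a start peak, against 46.7% of all such promoters. Promoters with a start peak thus had the higher median GC content among forkhead genes and among all genes, while the share of forkhead promoters with a peak was below that of all promoters in each GC range.

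GC skew, the excess of G over C on the gene's own strand, did not separate the forkhead promoters in this way. Only 50 of the 300 bases lie after the start, so skew and G runs of DNA transcribed farther downstream were not measured. Its median was 0% for the 9 with a start peak and 5.98% for the 32 without, and 1.02% and 0.671% over all promoters. FOXF2, with a skew of 53.1%, exceeded 99.9% of all promoters and had no peak. FOXP4, with −34.0%, was higher than 1.20% of them and had one. That peak, of maximum 2, lay outside the 300 bases measured and also at a boundary of FOXP4-AS1. At least 10 G runs were found in 39% of forkhead promoters and in 28.2% of all, and at least 1 in 100% and 98.2%. The forkhead factors' own motif TGTTTAC was searched on both strands in the 300 bases. It was found at FOXO4, in 1 of 41 forkhead promoters (2.44%), and in 2.68% of all promoters. The variant TGTTTAT was in none of the 41 and in 2.99% of all.

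**Figure D2:**
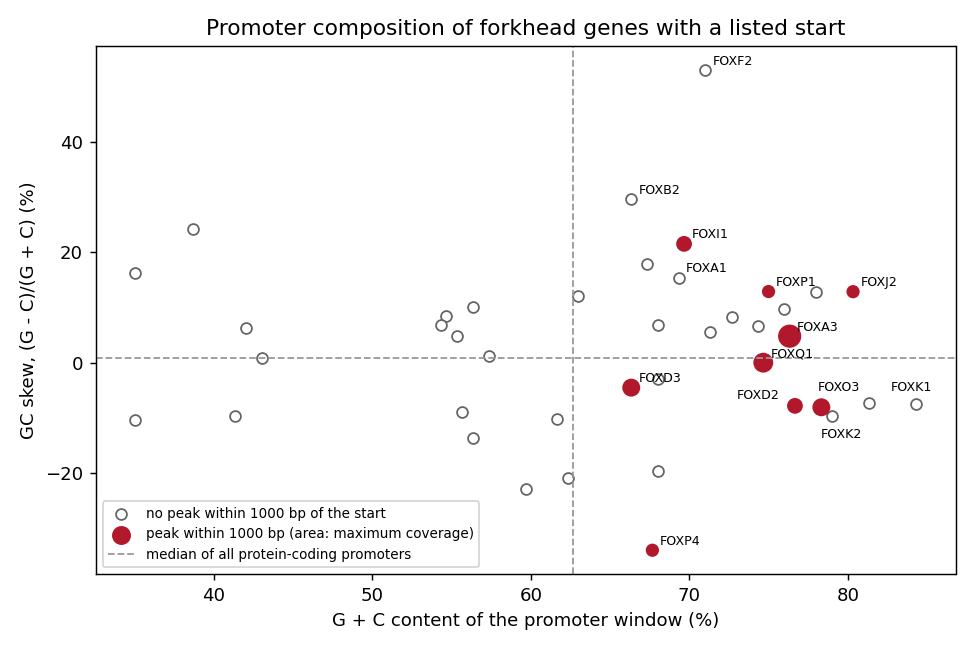
Each point is 1 of the 41 genes with a listed start, placed by the G + C content (x axis, %) and GC skew (y axis, %) of its 300-base promoter window. Filled points have a peak within 1000 bp of the start, with area following the maximum coverage, and dashed lines are medians of all protein-coding promoters. The 9 filled points lie between 66.3% and 80.3% G + C and on both sides of the skew median.

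The forkhead genes of lung epithelium were set beside the others as a list of 10: FOXA1, FOXA2, FOXA3, FOXI1, FOXJ1, FOXM1, FOXN4, FOXP1, FOXP2 and FOXP4. Of these, 6 had a boundary peak (60%, interval 31.3 to 83.2), against 10 of the other 42 (23.8%, interval 13.5 to 38.5) and 40.1% of all protein-coding genes. Any peak was found at 8 of 10 (80%) and at 18 of 42 (42.9%), against 60.4% of all protein-coding genes. The intervals overlapped, and the difference was not tested. With peaks of maximum 3 or more the counts were 3 of 10 and 7 of 42 (16.7%), against 32.2% of all protein-coding genes. The 3 genes of the lung list that dropped out, FOXP1, FOXP2 and FOXP4, had boundary peaks with a maximum of 2. The lists also differed in length, with median spans of 14.5 kb and 3.74 kb, and the part of length in the difference was not tested.

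**Figure D3:**
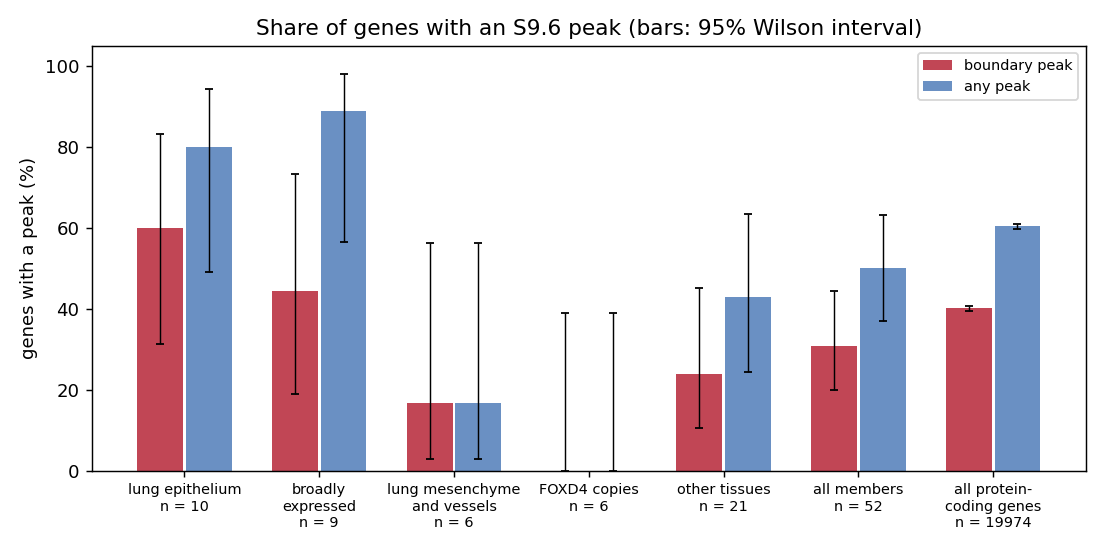
Bars give the percentage of genes with a boundary peak (within 1000 bp of an end) and with any peak, by group, with 95% Wilson intervals that cover counting error only. The number of genes stands under each group. Lung epithelium and broadly expressed forkhead genes stand at 60% and 44.4% for boundary peaks, and the 6 FOXD4 copies at 0.

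FOXA2, a pioneer factor needed for alveolar differentiation, had the highest peak of the lung list. On chromosome 20, where the gene spans 22580998 to 22585490, this peak ran from 22584683 to 22585344, inside the gene and 146 bp from its upper end. It was 662 bp wide, with a maximum of 8 and a total signal of 2426. A lower peak, with a maximum of 3 and a total of 1311, lay 899 bp beyond the same end and also touched the boundary of the lncRNA gene LNCNEF. FOXA2 thus had both its peaks at 1 end of the gene.

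FOXA3, which takes part in the mucous cell programme of the airway, had 3 peaks. The highest, on chromosome 19 from 45862336 to 45863425, was 1090 bp wide, with a maximum of 7 and a total of 2699. It lay wholly outside the gene, 901 bp from its start, and also lay at a boundary of the neighbouring SYMPK, which encodes a scaffold of mRNA 3′ end processing, so the gene it belongs to is uncertain. The other peaks, inside the gene and at its end, had a maximum of 2 and totals of 1035 and 752. Without the shared peak, the highest value of FOXA3 would be 2.

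FOXA1, a pioneer factor like FOXA2, had a single peak, inside the gene. It ran from 37591296 to 37591781 on chromosome 14, with a maximum of 3 and a total of 785, and its summit was 3.76 kb downstream of the start. No peak lay near the GC-rich promoter printed above. The highest peak thus lay outside the start for FOXA3 and in the gene interior for FOXA1. For FOXA2 it lay at the upper end of the span, which was not assigned to start or end because no strand was listed.

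FOXI1, the regulator of pulmonary ionocytes, had 1 peak of maximum 3 and total 957 with its summit 637 bp downstream of the start. FOXJ1, the driver of motile cilia, had none, and its nearest peak lay 4.99 kb away with a maximum of 2. FOXN4, which acts with the multiciliated cell programme, had 5 inside peaks, 1 with a maximum of 3 and the others of 2, with totals from 752 to 941, and none at a boundary. FOXM1, which drives genes of mitosis in dividing cells, had no peak over its 19495 bp, and the nearest, with a maximum of 5, lay 13.1 kb from it. Neither FOXJ1 nor FOXN4 had a boundary peak.

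FOXP1, FOXP2 and FOXP4 encode repressors that act in airway epithelium. FOXP1 spans 629 kb and had 6 peaks. Its boundary peak had a maximum of 2 and a total of 942, with its summit 342 bp downstream of the start, and the others had maxima of 2 or 3 and totals from 747 to 1085. FOXP4, at 56.0 kb, also had 6 peaks, the first with a maximum of 2, a total of 773 and a summit 1.12 kb after the start. That peak also lay at the boundary of the antisense gene FOXP4-AS1, and the other 5 had totals from 847 to 1249. FOXP2, at 607 kb, had 2 peaks of maximum 2, and the one at its boundary lay 598 bp outside the span, with its summit at −329 kb from the listed start. The totals of these peaks were 908 and 852. FOXP4 thus held as many peaks as FOXP1 in a far shorter gene.

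A second list held 9 forkhead genes that most cell types are known to use. A boundary peak was found at 4 of the 9 (44.4%), near the 40.1% of all protein-coding genes. Any peak was found at 8 (88.9%), against 60.4% of all genes. Their median span was 89.1 kb, and 65.9% of all genes of 20 to 100 kb and 79.2% of those of 100 kb or more had any peak. FOXN2 had the narrowest of the 78 forkhead peaks, on chromosome 2 from 48314304 to 48314635. It was 332 bp wide, with a maximum of 8 and a total of 1498, and began 645 bp inside the lower end of the gene. It also lay at a boundary of LOC124907766. FOXJ2 had 3 peaks, at the start, inside and at the end, each with a maximum of 2.

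The FOXO factors are held in the cytoplasm when insulin signalling activates AKT, and enter the nucleus to switch on stress and cell-cycle arrest genes when it falls. FOXO3 had 4 peaks, and the highest covered its start, from 108559727 to 108560864 on chromosome 6. That peak was 1138 bp wide, with a maximum of 4, a total of 1687 and its summit 705 bp downstream of the start. FOXO1 had 1 inside peak of maximum 3, and FOXO6 1 of maximum 2. FOXO4, on the X chromosome, had none within 23.7 kb, on a chromosome where 21.5% of protein-coding genes had a boundary peak and 35.1% any peak. FOXO3B, a copy related to FOXO3, had none within 1.86 kb. Among the FOXO genes only FOXO3 had a boundary peak.

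FOXK1 and FOXK2, broadly expressed repressors with a forkhead-associated domain, carried 8 peaks each. The highest at FOXK1, from 4743440 to 4745282 on chromosome 7, was 1843 bp wide, with a maximum of 8 and a total of 3452. The highest at FOXK2, from 82586223 to 82586613 on chromosome 17, was 391 bp wide, with a maximum of 7 and a total of 1132, and lay within the span of FOXK2-AS1. All 8 FOXK2 peaks were inside the gene. At FOXK1 7 were inside, the first with its summit 1.46 kb after the start, and 1 of maximum 2 lay 435 bp beyond the end. FOXN3 had 9 inside peaks over 463 kb. Its highest, with a maximum of 5 and a total of 2980, lay at a boundary of FOXN3-AS1. FOXJ3 had 2 inside peaks of maximum 2.

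Peaks inside long forkhead genes were dense for some members and sparse for others. Peaks over the span and 1000 bp on each side were counted and divided by the span alone, which raises the value most in the shortest genes. The median over 14 forkhead genes of 20 kb or more was 3.86 per 100 kb, and over all 10991 protein-coding genes of that length it was 1.61. The highest values were 18.4 for FOXN1, 15.97 for FOXN4, 13.2 for FOXJ2 and 10.7 for FOXP4. FOXN1, which directs thymic epithelium, exceeded 97.9% of genes of that length, with 6 inside peaks of which the highest had a maximum of 5. FOXK2 stood at 9.43 and FOXK1 at 8.97. The lowest were FOXP2 at 0.329, FOXO1 at 0.901 and FOXP1 at 0.953, all below the median of all genes. Thus 7 genes, FOXK1, FOXK2, FOXN1, FOXN3, FOXN4, FOXP1 and FOXP4, held 48 of the 78 forkhead peaks.

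In the 13 of these genes with a listed strand, 54 inside peaks fell with 11 in the first of 3 equal parts of the span (20.4%), 20 in the middle part (37.0%) and 23 in the last (42.6%). For all 8923 such protein-coding genes the shares were 31.5%, 32.3% and 36.2%. Peaks of 1 gene share their source, so this was not tested.

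**Figure D4:**
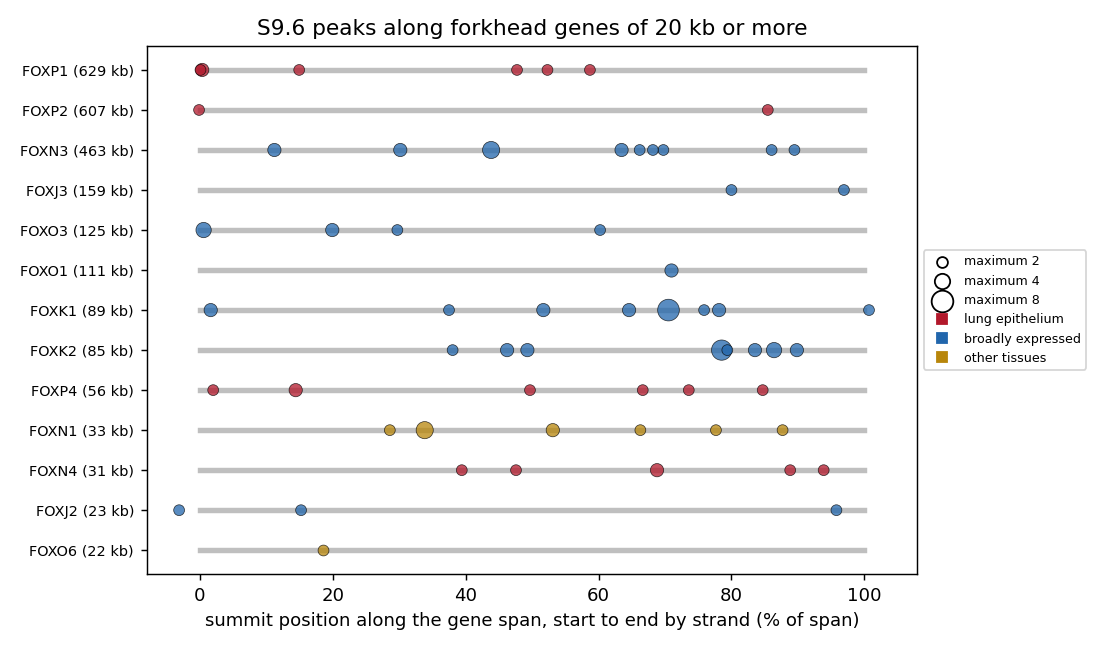
Each line is 1 of 13 forkhead genes of 20 kb or more with a listed strand, drawn from start to end as a percentage of its span (x axis), with circles at peak summits whose area follows the maximum coverage. FOXK1, FOXK2, FOXN1 and FOXN4 carry 5 to 8 peaks, more of them past 50% of the span than before it, while FOXO1 and FOXO6 carry 1 each.

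Forkhead genes of lung mesenchyme and vessels formed a list of 6, of which 1 had a boundary peak and 5 no peak. Among all protein-coding genes 40.1% had a boundary peak and 39.6% no peak. The median span of the list was 4.44 kb, and 35.5% of all genes under 5 kb had a boundary peak. FOXF1, which acts in lung vessels, had a peak from 86508574 to 86509637 on chromosome 16, with a maximum of 2 and a total of 1613. It lay 890 bp outside the gene and also at a boundary of the lncRNA gene FENDRR. FOXC2 and FOXL1 lie in the same cluster and shared a nearest peak of maximum 2, at 6.70 kb and 1.22 kb. This cluster, 73.0 kb from FOXF1 to FOXL1, held 3 peaks, the highest with a maximum of 6 between the genes. Of all protein-coding genes on chromosome 16, 58.2% had a boundary peak and 76.9% any peak.

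On chromosome 6, FOXQ1, FOXF2 and FOXC1 form a second cluster of 301.8 kb. FOXQ1, an epithelial factor, had a peak centred on its start: it ran from 1311628 to 1312379, with a maximum of 5, a total of 1838 and its summit 1 bp from the start. FOXF2 and FOXC1, regulators of mesenchyme, had none within 52.7 kb and 57.3 kb. The cluster held 3 peaks in all. Peaks are scarce on chromosome 6, where 16.7% of protein-coding genes had a boundary peak and 33.8% any peak, and 3 of the 5 forkhead genes on it (FOXQ1, FOXO3 and FOXP4) had one. FOXD1, on chromosome 5, had none within 27.3 kb.

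FOXD4 and its 5 copies had no peak at a boundary or inside. All are under 5 kb, and of all protein-coding genes of that length 35.5% had a boundary peak and 36.9% any peak. On chromosome 9, which holds all but FOXD4L1, the shares over protein-coding genes of every length were 47.4% and 70.7%. The 95% Wilson interval for 0 of 6 reached 39.0%. These genes arose by segmental duplication, and the promoters of FOXD4 and FOXD4L6 are shown as the pair with the longest alignment. Both are printed here on the minus strand, from chr9:118418-118667 for FOXD4 and chr9:41128682-41128931 for FOXD4L6, with G runs again in capitals.
FOXD4: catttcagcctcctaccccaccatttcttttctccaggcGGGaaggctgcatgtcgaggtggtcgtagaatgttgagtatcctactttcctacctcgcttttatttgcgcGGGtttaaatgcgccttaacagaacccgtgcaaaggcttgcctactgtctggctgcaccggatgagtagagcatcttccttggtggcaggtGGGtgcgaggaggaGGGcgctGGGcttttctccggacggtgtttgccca
FOXD4L6: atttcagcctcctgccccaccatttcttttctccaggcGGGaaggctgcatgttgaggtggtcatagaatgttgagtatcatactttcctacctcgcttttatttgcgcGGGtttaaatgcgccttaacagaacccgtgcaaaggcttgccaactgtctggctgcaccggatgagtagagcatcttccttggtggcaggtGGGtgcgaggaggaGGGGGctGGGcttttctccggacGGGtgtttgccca
Over the 300-base windows this pair aligned at 97.7% identity, and FOXD4L3 and FOXD4L4 shared an identical stretch of 215 bp. They were the only 2 of 15 pairs of copies that aligned over 100 bp or more, and the median over the 15 was 12 bp. Each window was placed by the listed start, so a short alignment does not show that the copies differ around their starts. FOXD4L3 and FOXD4L6 shared 87 bp, and FOXD4L1 and FOXD4L5 58 bp, both at 100% identity. Among 805 pairs that were not both FOXD4 copies, the longest local alignment was 48 bp and the median 10 bp. A short fragment from near-identical copies can map to more than 1 place, and how such reads were treated is not stated in the labels. Its part in the absence of peaks was not tested. The nearest peaks lay at 1.41 kb for FOXD4L1 (maximum 2), 1.47 kb for FOXD4 (maximum 3), 6.62 to 7.72 kb for FOXD4L4, FOXD4L3 and FOXD4L6, and 79.8 kb for FOXD4L5.

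The remaining 21 genes act mostly in other tissues. Boundary peaks were found at 5 (23.8%), inside peaks alone at 4 (19%) and no peak at 12 (57.1%), against 40.1%, 20.3% and 39.6% of all protein-coding genes. Their median span was 3.13 kb, and 35.5% of all genes under 5 kb had a boundary peak. Besides FOXQ1, the highest was at FOXD3, a neural crest regulator, whose peak from 63321941 to 63322671 on chromosome 1 covered the start. It had a maximum of 4, a total of 1351 and its summit at −231 bp from the start, within the span of FOXD3-AS1. FOXD2 had a peak of maximum 3 and total 810 ending 34 bp before its start and also at a boundary of LINC01389. FOXE3, a lens factor, had one of maximum 3 and total 848 lying 892 bp outside the gene. FOXH1, a partner of SMAD proteins in nodal signalling, had 2 peaks of maximum 3, both also at boundaries of KIFC2. Of the genes with inside peaks alone, FOXL2NB had a maximum of 3, and FOXI2 and FOXO6 of 2, beside FOXN1 above. Those with no peak included FOXB1, FOXB2, FOXE1, FOXI3, FOXL2, FOXL3, FOXO3B, FOXP3, FOXR1, FOXR2 and FOXS1. Among them, FOXP3, the factor of regulatory T cells, lay 4.02 kb from a peak of maximum 8, and FOXR2 was the farthest from any, at 317 kb.

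Some boundary peaks of forkhead genes also touched another gene. Of 20 such peaks (counted once per gene), 8 also lay at a boundary of another gene, 8 lay wholly outside the forkhead gene, and 4 covered an end of its span. These counts overlap, and some of the 20 peaks are in none of them. Where strand was listed, 10 of 13 boundary peaks were at the start side of the span and 3 at the end side. The 10 include the FOXP2 peak, whose summit lay at −329 kb from the listed start. This split was not computed for all protein-coding genes. Among 14 lncRNA genes named for a forkhead gene, 2 had a boundary peak, FOXN3-AS1 (maximum 5) and FOXP4-AS1 (2), against 18.2% of all lncRNA genes. Any peak was found at 4, with FOXD3-AS1 (4) and FOXK2-AS1 (7) added, against 29.3%.

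The 1000 bp limit left several genes just outside. Just inside it were FOXF1 at 890 bp and FOXE3 at 892 bp, and just outside FOXI2 at 1086 bp, FOXL1 at 1217 bp and FOXS1 at 1256 bp. With 500 bp, 11 of 52 forkhead genes had a boundary peak (21.2%), against 35.3% of all protein-coding genes. Counting only peaks with the summit within 1000 bp gave 13 of 52, against 36.7% of all protein-coding genes. With 2000 bp, 25 of 52 forkhead genes had a boundary peak (48.1%), against 45.8% of all protein-coding genes, so the share was then above the background instead of below it. The 9 genes gained were FOXA1, FOXB2, FOXD4, FOXD4L1, FOXI2, FOXL1, FOXN4, FOXO3B and FOXS1. Among the 26 forkhead genes without a peak, the median distance to the nearest was 8.16 kb, and 6 (23.1%) had one within 2000 bp. Among all 7909 protein-coding genes without a peak these values were 29.5 kb and 4.43%. The median forkhead gene without a peak was thus nearer to one than the median of all such genes, a difference that was not tested.

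**Figure D5:**
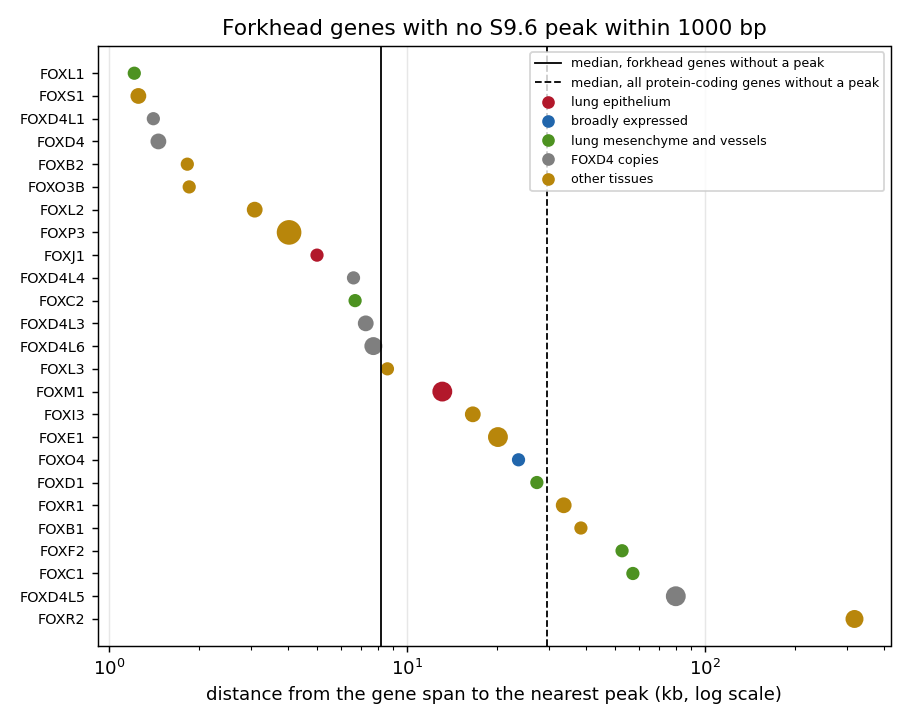
Each row is 1 gene, 25 of the 26 forkhead genes with no peak over the span or within 1000 bp, and the x axis (log scale) is the distance in kb to the nearest peak, with point area following that peak's maximum coverage. Vertical lines mark the medians of all 26 (8.16 kb, solid) and of all protein-coding genes without a peak (29.5 kb, dashed). FOXL1 is nearest at 1.22 kb and FOXR2 farthest at 317 kb.

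Genes known to work with forkhead factors were counted in the same way. Of 18 regulators of FOXO proteins, 13 had a boundary peak (72.2%, against 40.1% of all protein-coding genes). The highest boundary maxima were at YWHAQ, a 14-3-3 protein that binds FOXO, at 13, and the 14-3-3 genes YWHAG and YWHAH and the nuclear exportin XPO1, at 12 each. Of 18 FOXO targets, 7 had a boundary peak (38.9%), led by SESN1 (7), BBC3 (6) and BCL2L11 (5), and CAT and CDKN1B were among 6 with no peak. Of 12 FOXM1 targets, 6 had one, led by CKS1B (13), CENPA (6), and CDC25B and PLK1 (4 each), and CCNB1 and CENPE were among 5 with no peak. Of 18 partners and targets in lung epithelium, 10 had one (55.6%), with maxima of 5 at the cilia genes DNAI1 and RFX2 and 4 at the lung regulator NKX2-1, and GMNC and SFTPA1 were among 4 with no peak. Marker genes of the cell type gave boundary peaks at 4 of 5 epithelial genes, 2 of 4 leukocyte, 1 of 3 endothelial and 2 of 3 fibroblast genes. The highest of these maxima was 6, at KRT8, and EPCAM, PTPRC, CD3E and COL1A2 had no peak.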

How the data were processed

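The S9.6 peak list of 1 library was used. Per the submitters' processing notes the tools were SEACR 1.3, deepTools 3.5.2, Bowtie2 2.4.2, fastp 0.23.2, bedtools 2.30.0 and SAMtools 1.9, and the build GRCh38. Neither their roles nor the peak threshold, the control or the handling of duplicate and multiply mapping reads is stated there. The deposited signal values (total and maximum coverage per peak) are whole numbers, read as unscaled coverage from the values alone, and the number of reads is unknown. Genes, starts and promoters came from RefSeq tables of GRCh38.p14. Overlaps were computed with pandas 2.3.3 and numpy 2.4.6 on chromosomes 1 to 22 and X, and the overlap code was tested on simulated data. Promoter windows were aligned locally with Biopython 1.88. Wilson intervals (95%, scipy 1.17.1) cover counting error only. No test was made, since 1 library gives no replicate and genes are not replicates.

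The genes and lists were chosen with earlier results of these data known. Group membership came from general knowledge of the genes. Each gene of the lung list and each boundary peak of maximum 4 or more is described in full, and others by name and count; further peaks were described after their values were seen. Network genes were named as the 3 highest boundary peaks, with ties, and the first 2 without a peak in alphabetical order. Some genes were counted but are not reported here by name. Alternatives were window size, peak height, summit position, members and, added after seeing the data, chromosome 6 and the choice of start.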

Additional observations from a re-analysis of the deposited data

How the results depend on the processing

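Of 35 recomputed values, 27 stayed within 1.5 times the reported count or equal to the reported median. With windows of 2000 bp the boundary count rose from 16 to 25 of 52 forkhead genes. It rose from 10 to 17 of the 42 outside the lung list and from 6 to 8 of the 10 on it. Of all protein-coding genes 45.8% had a boundary peak in that setting. With peaks of maximum 3 or more the boundary count was 10 of 52, and 3 in place of 6 of the lung list, against 32.2% of all protein-coding genes. With peaks of maximum 5 or more it was 4 of 52, 2 of the lung list and 2 of the others, against 14.5%. Any peak of that height was found at 8 genes in place of 26, against 17.8%. In these settings the counts fall by construction as peaks are removed. Leaving out chromosome 6, chosen after seeing the data, gave boundary peaks at 13 of 47 forkhead genes and 5 of 9 of the lung list. The share over all protein-coding genes was then 41.4%. No paired analysis was possible because the S9.6 group has 1 library. The number of reads is unknown, and 53.8% of forkhead peaks had a maximum of 2 or less, so a gene without a peak cannot be told apart from one just under the threshold.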
